A study of Drosophila melanogaster with 6 samples.

Results

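The gustatory receptor (Gr) and ionotropic receptor (Ir) genes of the fruit fly are the chemosensory receptors of its taste organs and of part of its antenna. The members described here are every gene of the deposited table whose symbol is Gr or Ir followed by a digit. They number 105 of 15010 genes, 50 Gr genes and 55 Ir genes. Symbol alone chose them from the table, and no measured value entered that choice. The table itself holds only genes with a value above 0 in some library.

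Gustatory receptors are membrane proteins that form ligand-gated ion channels and detect sugars, bitter compounds, carbon dioxide and, for a few members, heat. Ionotropic receptors descend from the ionotropic glutamate receptors, and most consist of a tuning subunit that needs a broadly expressed co-receptor such as Ir25a, Ir76b, Ir8a or Ir93a. They detect acids, amines, salts, humidity and temperature. Most of these genes are known from a few sensory neurons each, in the proboscis, legs, wings, pharynx or antenna, and some Gr genes are also active in the enteroendocrine cells of the gut, which release peptide hormones.

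Polyadenylated RNA of adult Drosophila melanogaster progeny was sequenced in 6 libraries, each labelled intestine. The 3 control libraries came from the offspring of MTD-GAL4/+ mothers, and the 3 InR-DN libraries from the offspring of MTD-GAL4/InR-DN mothers. Both kinds of mother were mated with OregonR males. MTD-GAL4 drives expression in the maternal germline, and InR-DN is a dominant-negative insulin receptor, so the comparison asks whether maternal insulin signalling changed gene expression in the offspring. Offspring of these mothers can inherit the driver or the transgene, so an effect of the maternal germline and an effect of inherited transgene cannot be told apart. The labels state neither the age nor the sex of the progeny, nor whether replicate libraries came from different flies or matings. A p-value here thus reflects the spread between libraries, which may be technical.

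Values are the transcript abundance measure TPM, which divides the reads of a gene by its length and is scaled to the same total in every library, so levels can be compared between genes. Recovered reads summed to 33935336 to 45161715 per library. The receptor genes took 1548 to 2852 of them, counting genes with the same reads once. No pair of libraries of a group agreed within sampling noise, their chi-square values per degree of freedom lying between 22.4 and 99.1. All 9 enterocyte marker genes were present, with a summed level of 14879 to 21980 TPM. The libraries also held RNA of other organs, since the 11 photoreceptor markers summed to 3825 to 5258 TPM and the 10 antenna markers to 47.9 to 77.6 TPM. Of the antenna markers, 5 stayed under 1 TPM in each library, and so did 5 of the 6 taste bristle markers, which together summed to 2.39 to 2.86 TPM. The taste bristle list holds 3 of the receptor genes themselves (Gr66a, Gr5a and Gr64f), so it is no independent measure. The 8 enteroendocrine markers summed to 162 to 210 TPM and the 8 neuron markers to 113 to 129 TPM. In such bulk RNA, fewer cells of a type and less RNA per cell cannot be told apart, and which organ a receptor transcript came from was not tested.

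The receptor genes were rare transcripts. Averaged over the 6 libraries, 1 of the 105 genes exceeded 10 TPM, 7 lay between 1 and 10 TPM, 32 between 0.1 and 1 TPM and 65 below 0.1 TPM. The median member had a mean of 0.0416 TPM, and the median rank of the members was 13620 among the 15010 genes. Reads were present in all 6 libraries for 44 members, while 54 members had at most 10 reads over all libraries together and 14 of them had a single read. Each member had at least 1 read somewhere, but the table holds no gene that is 0 in all libraries. These counts thus cover detected receptors only. A library with 0 reads for a gene allows a level of up to 3 reads, which corresponded to 0.106 to 0.140 TPM for a gene of the length of Gr94a and covers counting error only.

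A few genes carried most of the signal. The 3 most read members, Ir76a, Gr98a and Ir62a, held 60.3% of the receptor reads. The summed level of the family, counting genes with the same reads once, was 54.5, 59.4 and 47.1 TPM in control replicates 1 to 3 and 43.2, 52.1 and 49.1 TPM in InR-DN replicates 1 to 3. The groups overlapped in this sum. Gr genes contributed 19.7, 19.9 and 16.1 TPM in the control libraries and 13.3, 16.4 and 14.5 TPM in the InR-DN libraries, and Ir genes 34.8, 39.5 and 31.0 TPM against 29.9, 35.6 and 34.7 TPM. Both sums overlapped between the groups, although the InR-DN Gr sum exceeded a control value in 1 library only.

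**Figure D1:**
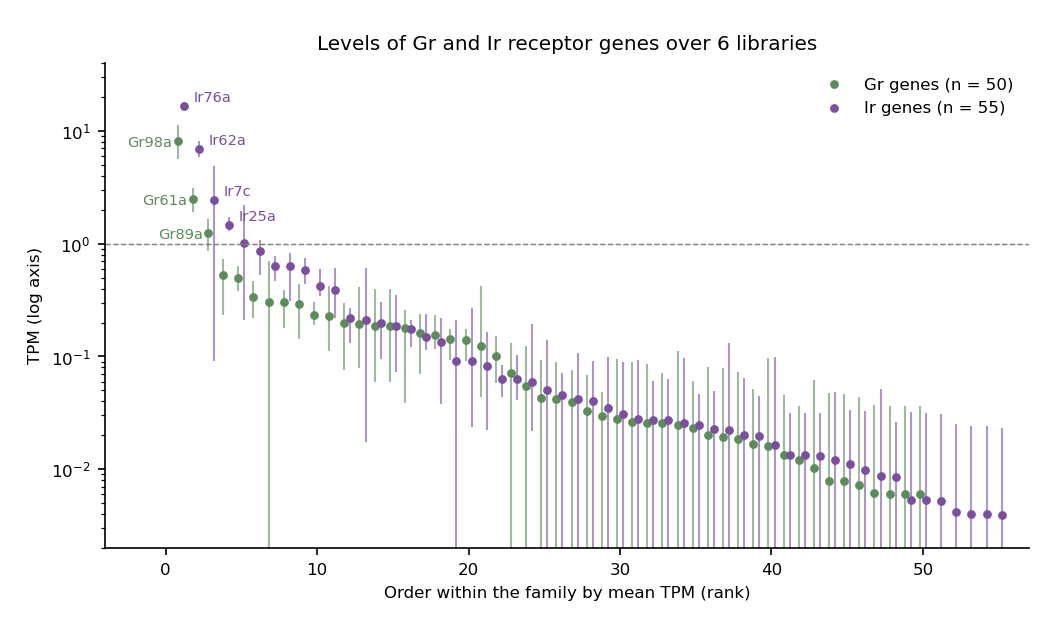
Mean TPM of each of the 50 Gr and 55 Ir genes over 6 libraries on a log axis, against the order within its family. Points are means, lines run from the lowest to the highest library and leave the axis where a library had no reads, and the dashed line marks 1 TPM; most members lie below 0.1 TPM.

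The genes are spread over the large chromosome arms, with 15 on 2L, 28 on 2R, 24 on 3L, 23 on 3R and 15 on the X. Receptor genes close in number or position could differ widely in level. Ir7c averaged 2.45 TPM while Ir7d, which lies 115 bases further on and on the opposite strand, had 1 read in all. In the same way Gr98a averaged 8.10 TPM, and the Gr98b, Gr98c and Gr98d genes of the same arm had 1, 1 and 2 reads over all 6 libraries. These genes were chosen after their values were seen. Counting limits what can be said of single members, because 20 of the 105 share exon bases with another annotated gene and 12 more lie inside another gene. The sources used here do not say whether counting took strand into account.

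No receptor gene differed between the groups after correction for multiple tests. In the limma fit of log2(TPM + 1), 7 members (Ir76a, Gr98a, Ir62a, Gr61a, Ir7c, Ir25a and Gr89a) passed the filter of at least 1 TPM in at least 3 libraries, and 0 of the 7 had an adjusted p under 0.05. Over all 10816 genes tested the share called was also 0% of genes. At an unadjusted p under 0.05 the fit gave 1 of the 7 members, Gr98a, against 3.15% of all genes tested. Without a filter, 0 of 105 members were called, and 5 of them (4.76%) had an unadjusted p under 0.05, against 3.78% of all 15010 genes. These 5 were Gr98a, Ir47a and Gr63a, with lower estimates in the InR-DN group (2.46% of all genes), and Gr94a and Ir20a, with higher ones (1.32%). The 105 estimates divided into 55 lower and 50 higher, or 52.4% lower, against 48.4% lower over all genes. With limma voom on the recovered reads, 0 of 26 members were called against 0.00872% of 11463 genes, and 2 (Ir47a and Gr98a) had an unadjusted p under 0.05 against 3.06% of genes.

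Non-overlap of the groups was also counted. Of the 25 members with at least 10 reads on average in 1 group, 4 did not overlap between the groups, against 6.98% of the 11559 such genes in the table. Gr98a, Ir47a and Ir40a lay lower in all 3 InR-DN libraries than in any control library, against 4.27% of genes, and Gr94a lay higher, against 2.72%. With any number of reads, 8 of 105 members did not overlap, against 6.89% of all genes. Beside the 4 above, Gr63a, Ir92a and Gr93d lay lower and Ir20a higher, on at most 10 reads per library. Each of these patterns reaches an exact permutation p of 0.1 (2-sided, 3 against 3 libraries), which is the smallest the design allows.

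**Figure D2:**
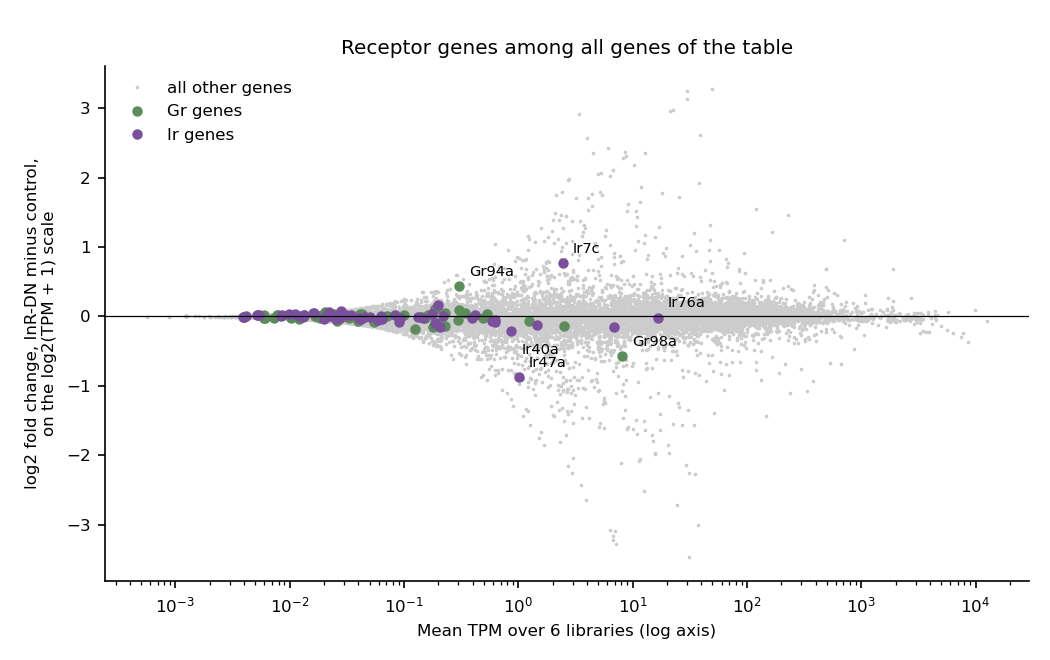
Log2 fold change of InR-DN minus control on the log2(TPM + 1) scale, from the fit without a filter, against mean TPM on a log axis, for all 15010 genes (grey), Gr genes (green) and Ir genes (purple). Most receptor genes sit at the left, where a low level leaves little room for a difference on this scale, and Ir47a, Gr98a, Gr94a and Ir7c lie furthest from 0 among the receptors.

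The sugar receptors were low, and 1 gene led them. Gr61a, a glucose receptor (arm 3L, 841451 to 843701, plus strand; this and all later positions are from the BDGP6.54 annotation), stood at 2.80, 3.08 and 2.15 TPM in the control libraries and at 1.90, 3.11 and 2.03 TPM in the InR-DN libraries. The groups overlapped, with the highest value in an InR-DN library, and the log2 fold change was -0.14 (SE 0.18; limma adjusted p = 1.00). The other sugar receptors had means between 0.140 and 0.301 TPM. Gr64f, a co-receptor of several sugar receptors, had 8, 10 and 6 reads in the control libraries and 10, 12 and 7 in the InR-DN libraries. Gr5a, the trehalose receptor, had 6, 9 and 8 reads against 2, 10 and 3. Gr43a, the fructose receptor that also serves as a nutrient sensor in the brain, had 7, 15 and 7 reads against 3, 7 and 5. Gr64a, a receptor for maltose and other sugars, had 6, 7 and 7 reads against 8, 9 and 5. None of these 4 genes separated the groups.

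The 6 Gr64 genes lie side by side on arm 3L within 10807 bases (4026769 to 4037575) and are known to be transcribed as shared messages. Gr64b and Gr64c have the same annotated exons and carried the same reads, 7, 4 and 16 in the control libraries and 4, 14 and 20 in the InR-DN libraries. Gr64d and Gr64e also shared their reads, 5, 12 and 11 against 7, 11 and 6. Each pair is therefore a single measurement. The summed level of the 7 distinct sugar receptor measurements was 3.95 ± 0.56 TPM in control and 3.65 ± 0.87 TPM in InR-DN libraries (SD, n = 3), with overlapping groups.

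The bitter receptors were at the edge of detection. Gr66a, needed for caffeine avoidance, had 13, 6 and 13 reads in the control libraries and 10, 11 and 4 in the InR-DN libraries, a mean of 0.295 TPM. Gr32a, which also takes part in pheromone detection, had 4, 7 and 3 reads against 7, 15 and 3. Gr33a, a broadly used bitter co-receptor, had 4, 2 and 1 reads against 0, 4 and 3, and Gr93a, another caffeine receptor, had 0, 2 and 1 against 0, 3 and 2. No bitter receptor separated the groups.

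Carbon dioxide is detected in the antenna by Gr21a and Gr63a, which act together. Gr63a (arm 3L, 3894999 to 3896603, minus strand) had 7, 8 and 8 reads in the control libraries and 1, 5 and 4 in the InR-DN libraries, or 0.257, 0.233 and 0.235 TPM against 0.0384, 0.152 and 0.154 TPM. All control values lay above all InR-DN values. Its partner Gr21a had 4, 3 and 6 reads against 3, 5 and 6, and its groups overlapped. For Gr63a the unfiltered limma fit gave a log2 difference of -0.16 (SE 0.05; unadjusted p = 0.0263, adjusted p = 1.00) on the log2(TPM + 1) scale.

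Among the remaining 35 Gr genes, Gr98a was far above the rest. Gr98a (FBgn0039520; arm 3R, 27487927 to 27489968, plus strand) stood at 11.2, 10.5 and 8.09 TPM in the control libraries, from 398, 468 and 360 reads. In the InR-DN libraries it stood at 5.61, 7.01 and 6.26 TPM, from 191, 301 and 212 reads. All InR-DN values lay below the lowest control value. The means were 9.91 ± 1.61 and 6.29 ± 0.70 TPM (SD, n = 3), a ratio of 1.57, and the log2 fold change was -0.57 (SE 0.14; limma unadjusted p = 0.00587, adjusted p = 0.991). Over the alternative settings the fold change ran from -0.70 to -0.49, with adjusted p between 0.457 and 1. This gene held 53.0% of all Gr reads. Its libraries differed within a group by more than counting error, with a chi-square of 6.97 per degree of freedom.

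The InR-DN libraries also had lower levels of several oenocyte markers, a list added after the data were seen. Oenocytes are the hydrocarbon-producing cells under the cuticle. Of its 9 listed markers 7 were present and 6 were tested. Of these, 5 had lower estimates and 0 were called, with 4 at an unadjusted limma p under 0.05. Over all genes tested, 45.4% had lower estimates and 3.15% an unadjusted p under 0.05. The median log2 fold change of the tested oenocyte markers was -0.32, beside 0.01 over all genes tested. The summed level of the oenocyte markers was 13726, 12990 and 12108 TPM in the control libraries and 9187, 12513 and 9885 TPM in the InR-DN libraries. The groups overlapped in this sum. Fat body markers had 3 of 3 tested genes with lower estimates (median -0.24), with 0 called, and antenna markers 4 of 5 (median -0.12), also with 0 called. Of the fat body markers under 1 TPM, Lsp2 had a higher and Fbp1 a lower mean in the InR-DN libraries. Lower estimates also prevailed among photoreceptor (10 of 11), neuron (7 of 8), enteroendocrine (6 of 8) and enterocyte markers (6 of 9). Higher estimates prevailed among oocyte and nurse cell (3 of 5), flight muscle (3 of 4) and eggshell markers (11 of 15). The part of any of these tissues in the Gr98a difference was not tested.

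Gr89a, which is found in most bitter-sensing neurons of the labellum, is the other gene of this set above 1 TPM (arm 3R, 16497817 to 16498959, minus strand). It stood at 1.39, 0.866 and 1.66 TPM in the control libraries and at 1.19, 1.03 and 1.35 TPM in the InR-DN libraries, with a log2 fold change of -0.06 (SE 0.17; limma adjusted p = 1.00). The InR-DN values all lay within the control range. Gr59f, at 0.529 TPM, Gr10a, at 0.496 TPM, and Gr47b, at 0.339 TPM on average, overlapped between the groups as well. Gr10a is known from the antenna, beside the odorant receptor gene Or10a. Its TPM values gave whole reads at a length of 1524 bases and not at the annotated 2819 bases, all of which the annotation shares with Or10a, so which bases were counted is not known. Gr28b, a warmth receptor, had 7 to 21 reads per library, and its neighbour Gr28a, which detects RNA constituents in larvae, had 0 to 2.

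Gr94a was the one member with at least 10 reads on average in a group that lay higher in all InR-DN libraries. It had 1, 8 and 0 reads in the control libraries and 15, 10 and 9 in the InR-DN libraries, or 0.0443, 0.282 and 0 TPM against 0.696, 0.368 and 0.420 TPM. By TPM the lowest InR-DN library was replicate 2, with 10 reads, and the highest control library was replicate 2, with 8 reads. The unfiltered limma fit gave a log2 difference of 0.43 (SE 0.12; unadjusted p = 0.0122, adjusted p = 1.00) on the log2(TPM + 1) scale. Gr94a (arm 3R, 23051689 to 23052903, plus strand) lies inside the span of p53 on the opposite strand. It shares no annotated exon base with p53, which stood at 19.4 to 24.6 TPM in the 6 libraries.

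**Figure D3:**
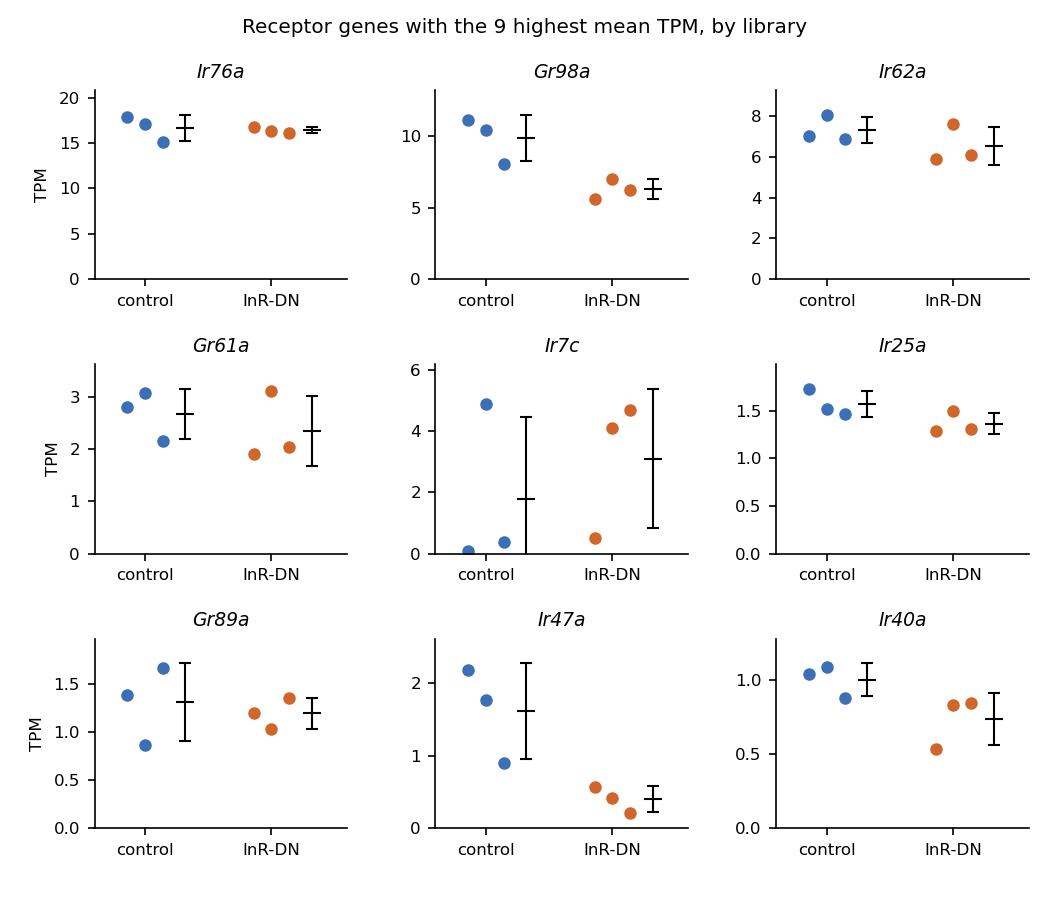
TPM of the 9 receptor genes with the highest mean, 1 point per library, with the mean and SD of each group (n = 3) beside the points; each panel has its own linear axis from 0. Gr98a, Ir47a and Ir40a separate the groups, the 3 highest Ir7c values occur in both groups, and the other 5 genes overlap.

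The Ir co-receptors were detected in every library. Ir25a, the most widely used co-receptor (arm 2L, 4830846 to 4835300, minus strand), stood at 1.73, 1.52 and 1.47 TPM in the control libraries and at 1.29, 1.49 and 1.31 TPM in the InR-DN libraries. Its groups overlapped through InR-DN replicate 2, and the log2 fold change was -0.12 (SE 0.12; limma adjusted p = 1.00). Ir76b, the co-receptor of amine, salt and amino acid receptors, stood at 0.584, 0.780 and 0.654 TPM against 0.684, 0.619 and 0.466 TPM. Ir8a, the co-receptor of acid-sensing receptors, averaged 0.176 TPM, and Ir93a, needed for temperature and humidity sensing, averaged 0.0635 TPM. Neither separated the groups. The spread between libraries of a group was no larger than counting error for Ir25a and Ir76b, with within-group chi-square values per degree of freedom of 0.779 for Ir25a and 0.793 for Ir76b.

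The most abundant receptor gene of all was Ir76a, an antennal receptor for amines such as phenylethylamine (FBgn0260874; arm 3L, 19799278 to 19803427, plus strand). It stood at 17.9, 17.1 and 15.1 TPM in the control libraries and at 16.8, 16.4 and 16.1 TPM in the InR-DN libraries, from 600 to 839 reads each. The InR-DN values lay inside the control range. The means were 16.7 ± 1.43 and 16.4 ± 0.345 TPM (SD, n = 3), with a log2 fold change of -0.02 (SE 0.09; limma adjusted p = 1.00). It was the single receptor gene above 10 TPM. The annotated exons of Ir76a share 297 bases with CG14102 on the opposite strand, which had a similar level of 15.7 to 19.4 TPM in the control libraries and at most 22.3 TPM in the InR-DN libraries, so the reads of both genes cannot be told apart in the shared bases.

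Ir40a, a receptor for dry air (arm 2L, 22189526 to 22214376, minus strand), was the better-read of 2 antennal receptors whose groups did not overlap. The other was Ir92a, with 16 reads in all. Ir40a stood at 1.04, 1.09 and 0.873 TPM in the control libraries, from 57, 75 and 60 reads. In the InR-DN libraries it stood at 0.533, 0.829 and 0.841 TPM, from 28, 55 and 44 reads. The gap between the groups was small, with InR-DN replicate 1 well below the other 5 libraries. The ratio of control to InR-DN means was 1.36, and the unfiltered limma fit gave a log2 difference of -0.21 (SE 0.10; adjusted p = 1.00). Without InR-DN replicate 1 the difference was -0.12, with a pseudocount of 0.1 it was -0.41, and voom gave -0.45.

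InR-DN replicate 1 was also the lowest library for Ir75a, Ir68a and, by a small margin, Ir75b, but not for Ir76a, which was lowest in control replicate 3, or for Ir21a and Ir64a, which were lowest in InR-DN replicate 2. Ir75a, a receptor for acetic acid, stood at 0.625, 0.519 and 0.827 TPM in the control libraries and at 0.313, 0.744 and 0.743 TPM in the InR-DN libraries. Ir68a, a receptor for moist air, stood at 0.529, 0.597 and 0.742 TPM against 0.439, 0.622 and 0.603 TPM. The same library was the lowest for the antenna markers, at 47.9 TPM in sum, where the other 5 libraries lay between 69.1 and 77.6 TPM. Markers lower there included the odorant-binding protein gene Obp83b, at 22.2 TPM against 35.4 to 40.1 TPM elsewhere, and lush, at 1.73 TPM against 3.52 to 4.02 TPM. Obp83a, Orco and, by a small margin, Snmp1 were also lowest there. The odorant receptor genes Or22a, Or42b, Or67d and Or83c, all under 1 TPM, were not lowest in that library. The marker amos had reads in control replicate 3 only. InR-DN replicate 1 was also the lowest library for the summed photoreceptor (3825 against 4360 to 5258 TPM) and enterocyte markers (14879 against 18821 to 21980 TPM). The same held for enteroendocrine (162 against 172 to 210 TPM) and oenocyte markers (9187 against 9885 to 13726 TPM). For oocyte and nurse cell markers it was the highest library, at 1243 TPM against 1062 to 1178 TPM. It was not the lowest for neuron, taste bristle, fat body, flight muscle, testis or eggshell markers. The part of any of these tissues in the receptor values was not tested.

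Ir75b, a receptor for butyric acid, averaged 0.418 TPM and overlapped between the groups. Ir21a, a cool receptor, averaged 0.390 TPM and shares 2087 exon bases with an antisense RNA. Ir64a, an acid receptor, varied more than its counting error allows, with 29, 2 and 12 reads in the control libraries and 3, 1 and 15 in the InR-DN libraries. Its chi-square within groups was 14.2 per degree of freedom. High and low libraries of Ir64a occurred in both groups. Ir21a and Ir64a were named after their values were seen. The 13 antennal Ir genes together stood at 22.1, 20.6 and 19.4 TPM against 19.3, 19.7 and 20.4 TPM, of whose reads Ir76a held 79.6%.

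**Figure D4:**
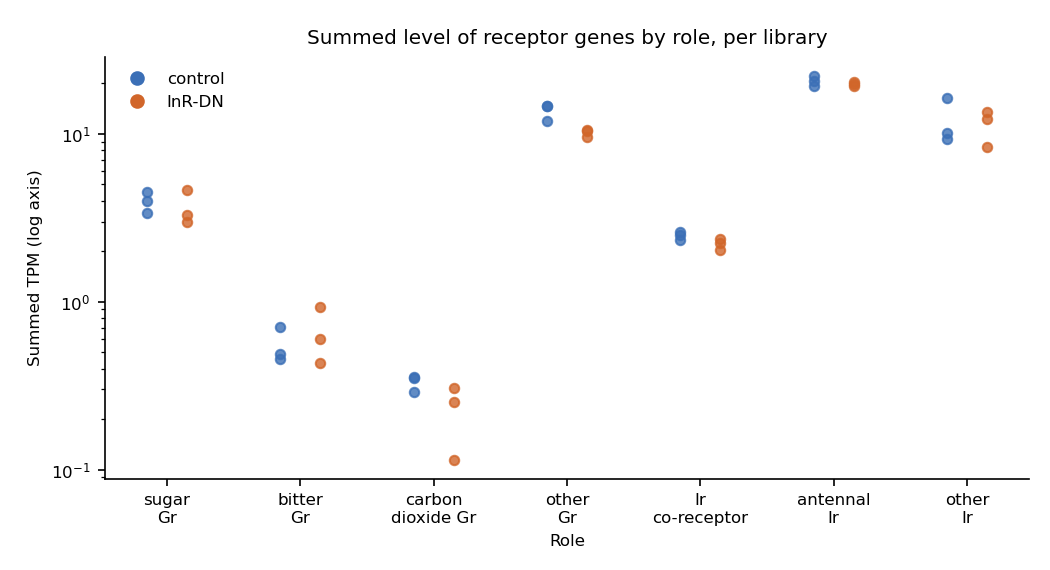
Summed TPM on a log axis of the receptor genes grouped by role, 1 point per library, control (blue) and InR-DN (orange); genes with the same reads are counted once. The remaining Gr genes, dominated by Gr98a, lie lower in all 3 InR-DN libraries (9.61 to 10.6 TPM) than in the control libraries (11.9 to 14.7 TPM), and the other 6 sets overlap between the groups.

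The remaining 38 Ir genes are mostly taste receptors, and 33 of them averaged under 0.1 TPM. Ir62a, a subunit needed for calcium avoidance, led the set at 7.01, 8.07 and 6.89 TPM in the control libraries and 5.88, 7.60 and 6.10 TPM in the InR-DN libraries. The groups overlapped, with a log2 fold change of -0.15 (SE 0.13; limma adjusted p = 1.00). Ir62a (arm 3L, 1529439 to 1531259, minus strand) lies inside the span of Iml1, on the same strand and without shared exon bases. Iml1, a regulator of growth signalling, stood at 29.5 to 43.6 TPM, and both genes were highest within their group in replicate 2. Reads of unspliced Iml1 and of Ir62a cannot be told apart there.

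Ir47a was the receptor gene with the lowest ratio of InR-DN to control among the well-read members. It stood at 2.19, 1.77 and 0.897 TPM in the control libraries, from 121, 123 and 62 reads, and at 0.567, 0.419 and 0.209 TPM in the InR-DN libraries, from 30, 28 and 11 reads. Each InR-DN value lay below each control value, and within both groups replicate 3 was the lowest. The within-group chi-square of Ir47a was 10.9 per degree of freedom, so libraries of a group differed by more than counting error. The ratio of the mean TPM in control over InR-DN was 4.06. Ir47a missed the filter of the main fit. Without the filter its log2 difference was -0.88 (SE 0.21; limma unadjusted p = 0.00512, adjusted p = 0.866) on the log2(TPM + 1) scale, and limma voom on its reads gave -1.98 (SE 0.49; unadjusted p = 0.00558, adjusted p = 1.00).

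The surroundings of Ir47a bear on its counting. It lies inside the span of the potassium channel gene SLO2, listed as CG42732 in the table, on the same strand and without shared exon bases. SLO2 stood at 11.1, 10.7 and 11.5 TPM in the control libraries and 11.4, 10.7 and 10.2 TPM in the InR-DN libraries, with overlapping groups. These values count SLO2 exons and need not follow unspliced SLO2. Reads of unspliced SLO2 and of Ir47a cannot be told apart there. Ir47a also shares 413 exon bases with the pseudogene Ir47b, and reads of the shared bases cannot be told apart.

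Ir7c differed between libraries rather than between groups. Ir7c, a taste receptor for high salt concentrations (FBgn0029966; X chromosome, 7874394 to 7876847, plus strand), stood at 0.0914, 4.89 and 0.384 TPM in the control libraries and at 0.502, 4.11 and 4.71 TPM in the InR-DN libraries. The reads were 4, 269 and 21 against 21, 217 and 196. Control replicate 2 and InR-DN replicates 2 and 3 were high, and the other libraries were low. The log2 fold change was 0.77 (SE 0.76; limma adjusted p = 1.00) and ran from 0.30 to 1.81 over the alternative settings. Its within-group chi-square per degree of freedom was 134, the highest of the 21 members with at least 60 reads, for which the median was 2.70 and the lowest 0.454.

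The same split into high and low libraries was present in several genes of the eggshell, which follicle cells of the ovary make. The gene dec-1, which encodes eggshell proteins, lies 1171 bases from Ir7c on the opposite strand (X chromosome, 7867161 to 7873222). By their strands, dec-1 and Ir7c are transcribed away from each other. The antisense RNA gene asRNA:CR43615, without a level here, ends 753 bases before Ir7c on the strand of Ir7c. The level of dec-1 was 3.04, 102 and 13.2 TPM in the control libraries and 6.61, 104 and 53.1 TPM in the InR-DN libraries. The vitelline membrane gene Vm26Ac stood at 0.172, 26.7 and 0.138 TPM against 0.450, 18.2 and 19.1 TPM. In both genes, as in Ir7c, control replicate 2 and InR-DN replicates 2 and 3 exceeded the other libraries. This split held for 8 of the 17 eggshell genes listed, all 5 vitelline membrane genes among them, and for 3.39% of all 15010 genes.

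Not every eggshell gene shared it. The chorion gene Cp36 stood at 0.193, 467 and 498 TPM in the control libraries and at 446, 27.7 and 1.17 TPM in the InR-DN libraries, so it was high in control replicate 3 and InR-DN replicate 1, where Ir7c was low. The eggshell list was added after the Ir7c values were seen, and these splits are a description. Whether Ir7c reads came from follicle cells, or from transcription begun between dec-1 and Ir7c, was not tested.

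**Figure D5:**
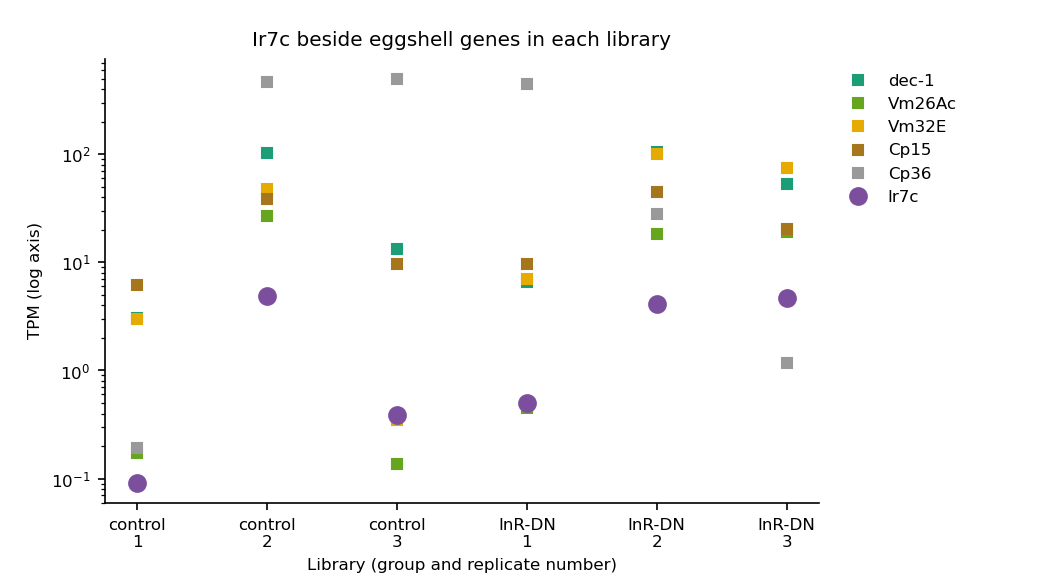
TPM on a log axis of Ir7c (circles) and 5 eggshell genes (squares) in each of the 6 libraries. Ir7c is high in control 2, InR-DN 2 and InR-DN 3, as are dec-1, Vm26Ac, Vm32E and Cp15, whereas Cp36 is high in control 2, control 3 and InR-DN 1.

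Related gene lists were read in the same fit. The list of 15 taste and other chemosensory channel genes also counts the rhodopsin gene Rh6, which is among the photoreceptor markers too. Of the 15, 13 were present and 8 were tested. Of these, 3 had a higher and 5, with Rh6, a lower estimate, and 0 were called, with a median log2 fold change of -0.02. They included ppk23 and ppk29, pheromone channel subunits, at 0.15 (SE 0.13) and 0.12 (SE 0.13), ppk28, the water taste channel, at -0.02 (SE 0.16), and TrpA1, the channel for heat and irritants, at 0.06 (SE 0.18).

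Ionotropic glutamate receptors, the synaptic relatives of the Ir genes, had 14 of 16 listed genes present and 13 tested. Their estimates were higher for 2 and lower for 11, 0 were called, and the median was -0.07. The muscle subunit GluRIIA stood at 5.32, 5.71 and 4.85 TPM in the control libraries and 4.39, 4.74 and 4.56 TPM in the InR-DN libraries, with a log2 fold change of -0.18 (SE 0.11; limma adjusted p = 1.00). Its 2 groups did not overlap, and it was chosen after its values were seen.

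Among 18 genes for odorant-binding proteins, co-receptors and fates of chemosensory cells, 11 were tested, 4 higher and 7 lower, 0 were called, and the median was -0.04. The median over all 10816 genes tested was 0.01, and over the 7 receptor genes tested it was -0.12, with 6 estimates lower and 1 higher, where 45.4% of all genes tested were lower. Those 7 are the receptors that passed the level filter and do not stand for all members, for which the median without a filter was -0.0041.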

How the data were processed

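The authors deposited a single table of TPM values for 15010 genes, each library summing to 1000000, per the file headers. Per the submitters' processing notes, TopHat and edgeR were used, in roles not stated. For the build, annotation, read counter and strand setting, nothing is given in the sources used here. Per the labels' protocols, RNA extraction used Trizol and polyA libraries an Illumina kit.

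Columns were matched to samples by group and replicate number. Gene symbols were looked up in the BDGP6.54 annotation by current symbol (11527) or older symbol (3346). Multiplying TPM by exon length and a factor per library gave whole reads for 94.7% of the 14873 genes with a length (tolerance 1e-06). Other lengths were solved for 922 genes, so reads were recovered for 15008 genes and for all 105 receptor genes (103 at the annotated length). A further 21 Gr and Ir symbols of the annotation were not analysed here, and whether they had reads is not known. Floors of 3 reads cover counting error only.

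Log2(TPM + 1) values, with a pseudocount of 1, were fitted by limma-trend (limma 3.58.1, R 4.3.3) with a term for group alone. The 10816 genes reaching 1 TPM in 3 or more libraries entered, and a gene was called at a 2-sided Benjamini-Hochberg adjusted p under 0.05. A fold change on this scale understates the change of low genes. Alternatives were a pseudocount of 0.1, no filter, median-of-ratios rescaling, a replicate block, limma voom with TMM on the reads (11463 genes with 10 or more in 3 or more libraries, 1 called) and leaving out each library. Log2 differences of receptors below the filter were added after the data were seen.

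Receptors are named when they pass the filter, rank among the 10 highest of their family, belong to the co-receptor, sugar, carbon dioxide, bitter or Gr28 sets, or have groups that do not overlap with at least 10 reads on average in 1 group (up to 5 per direction); other genes are marked. The members, role sets and lists were chosen with earlier results of these data known. Marker lists covered enterocytes, enteroendocrine cells, neurons, photoreceptors, antenna and taste bristles, and also oocyte and nurse cells (1062 to 1243 TPM in sum), fat body (6307 to 9633), flight muscle (342 to 426) and testis (13.6 to 25.7). Single genes carried 2 of these sums. Of the 5 testis markers present, 4 stayed under 1 TPM in each library, while bam stood at 13.6 to 25.5 TPM. Among fat body markers, Yp1 stood at 6162 to 9482 TPM. The oenocyte and eggshell lists were added after the data were seen.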

Additional observations from a re-analysis of the deposited data

How the results depend on the processing

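No receptor gene was called under any of the 11 alternatives. Over all genes, the count called moved from 0 to 1 with a pseudocount of 0.1 and to 1 with limma voom, and ran from 0 to 3 when a library was left out, at 265 to 937 genes with an unadjusted p under 0.05. The replicate block also called 0 genes, with 362 at an unadjusted p under 0.05. Same-numbered libraries of both groups did not deviate together from their group means (correlations -0.41, -0.18 and -0.13). Deviations from a mean of 3 libraries constrain one another, so these values cannot show whether same-numbered samples were paired.

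Of the 7 tested receptors, 2 changed sign: leaving out a library moved Ir76a between -0.08 and 0.03 (without control replicate 1) and Gr89a between -0.21 and 0.05 (without control replicate 3). Both of the reversed values are within their standard errors. The estimate of Ir7c ran from 0.30 to 1.52 when a library was left out (lowest without control replicate 1, highest without control replicate 2), and was 1.57 with the smaller pseudocount and 1.81 with voom. For receptors below the filter, 25 differences moved by more than the spread between libraries, all with the smaller pseudocount or voom, among them Ir47a to -1.77 and -1.98. The medians of the 3 related lists stayed between -0.16 and 0.07.

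Depth and the spread between libraries both limit the results. At most 10 reads in all were found for 54 of 105 members, and of the 21 with at least 60 reads, 8 had a within-group chi-square per degree of freedom below 2. With 3 libraries a group, no exact test can go below 0.1.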
